A study of Mus musculus with 12 samples.

Results

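The cells described here are the Foxp3-positive T cells, or regulatory T cells, of mouse lymph nodes. They were taken from 6 single-cell RNA libraries of the CD45 fraction, the fraction that carries the general surface protein of blood-derived cells. Barcodes with fewer than 1000 unique molecular identifiers (UMIs, each one captured RNA molecule), fewer than 500 genes or more than 10% of their UMIs in mitochondrial genes were left out. Members were chosen by their own UMIs, which are measured values. A kept cell was a member when it held at least 1 UMI of the T cell receptor genes Cd3d, Cd3e and Cd3g together, at least 1 UMI of Foxp3, none of the CD8 genes Cd8a and Cd8b1, and none of the B cell genes Cd79a and Ms4a1. By this gate 818 of 45341 CD45 cells (1.80%) were members, out of 95358 kept cells in all 12 libraries. A Cd4 UMI was found in 410 members and not in the other 408, and 378 held a single Foxp3 UMI against 440 with at least 2.

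The libraries form a grid of 1 library per combination of treatment and Cre label, so every group has 1 sample. All mice were C57BL/6, 7 to 10 weeks old, carried the ATG12 fl/fl allele with or without CDH5 CreER, and received tamoxifen 5 times, the label-negative mice included. CDH5 CreER is a tamoxifen-inducible recombinase driven by the Cdh5 promoter, which is active in endothelial cells and not known for activity in T cells. ATG12 is a protein that autophagy needs to build its membranes. The skin of the abdomen was cleared with Veet and painted with 50 ul of 4% oxazolone, a contact sensitizer, in acetone and olive oil, and nodes were taken on day 3 or day 7, while vehicle mice received the solvent alone. Nodes were digested with enzymes, enriched with CD45 microbeads and sorted by flow cytometry before loading on a 10x 3 prime kit. The labels do not say how many mice or nodes went into a library, so the p-values below measure only the spread between these libraries. In the order used throughout (vehicle, day 3, day 7, and at each of them Cre-negative first and Cre-positive second), the libraries held 132, 99, 173, 133, 121 and 160 members.

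Regulatory T cells are the CD4 lineage that restrains other immune cells, and the transcription factor FOXP3 defines them. They carry the high-affinity IL-2 receptor chain CD25 (Il2ra) but make no IL-2 of their own, and they act through CTLA-4, IL-10, TGF-beta and the capture of IL-2. In lymph nodes a resting form that recirculates with CCR7 is distinguished from an activated or effector form with ICOS, TNF-receptor family members and tissue-homing receptors. Oxazolone on skin starts a T cell response in the draining node.

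The CD45 libraries held 36724887 to 70160214 UMIs, and their kept cells had medians of 3660 to 6353.5 UMIs. No member barcode occurred in 2 of the CD45 libraries, and any pair shared 0.127% to 0.271% of its cell barcodes. The library labelled vehicle Cre-positive stood apart in sex: none of its 99 members held an Xist UMI, which allows a share of up to 3.03%, and 83.8% held a Y-linked one, while the other 5 libraries had both kinds of cell. Atg12 was above its Cre-negative partner in each Cre-positive CD31 library. In the 4063 to 6976 cells of each CD31 library with a Cdh5 UMI it stood at 50.8, 71.7, 45.9, 58.7, 51.6 and 61.5 CPM, that is, UMIs of the gene scaled to a common library total. A 3 prime tag may lie outside the deleted part and then checks nothing, so the groups are called by their labels only. Members themselves held Atg12 at 43.9, 44.6, 34.8, 39.5, 47.02 and 36.8 CPM, with overlapping label groups.

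The label of the gate was checked against the markers of the lineage. CPM values are taken over the summed UMIs of the cells of a class in a library, and differences are log2 values from edgeR's fit, whose library sizes are scaled by the trimmed mean of M-values. The SE given with a difference is its absolute value divided by the square root of edgeR's quasi-likelihood F statistic. It is not a value that edgeR itself reports. Foxp3 chose the cells and is described without a test: it stood at 258, 311, 143, 199.9, 321 and 244 CPM in the summed UMIs of the members. Il2ra stood at 206, 283, 252, 278, 255 and 282 CPM in members and at 25.2, 25.8, 36.9, 42.8, 29.9 and 23.3 CPM in conventional CD4 T cells of the same libraries. Conventional here means a Cd4 UMI, no Foxp3 UMI and otherwise the same gate, 2989 cells in all. Ikzf2, which encodes the lineage factor Helios, stood at 1495, 2252, 999.98, 1627, 1376 and 1425 CPM against 293, 222, 183, 171, 199 and 216 CPM. Ctla4, the inhibitory receptor, stood at 994, 1236, 815, 1062, 743 and 856 CPM against 315, 167, 259, 281, 174 and 214 CPM. All 3 markers were higher in the members of every library, and the 2 sets of libraries did not overlap for any of them. Cells just inside the Foxp3 threshold were set beside those further in, without a test. With exactly 1 Foxp3 UMI, Ikzf2 stood at 1476, 2242, 1065, 1419, 1383 and 1289 CPM, and with at least 2 it stood at 1512, 2257, 967, 1679.5, 1365 and 1506 CPM.

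Marker lists of other cell types were summed over the members. CD8 T cell markers summed to 43.9 to 137 CPM in members and 32.1 to 633 CPM in conventional cells, NK markers to 3.93 to 49.3 against 29.6 to 76.02 CPM, and myeloid markers to 124 to 272 against 129 to 330.3 CPM. Endothelial markers summed to 74.6 to 192 against 135 to 234 CPM. Of these 8 markers Cdh5 and Tie1 were at 0 in all member sums, as were 2 of the 8 B cell and 2 of the 5 CD8 markers, which the gate itself removes. B cell markers summed to 490.1 to 1541 CPM in members, with the highest sum in the library labelled day 7 Cre-positive, and to 215 to 668 CPM in conventional cells, while fibroblast markers summed to 26.2 to 743 against 964 to 2001 CPM. Plasma cell markers summed to 44.6 to 68.6 against 38.9 to 50.8 CPM and gamma-delta T cell markers to 0.773 to 23.6 against 3.37 to 15.3 CPM. With the cells that held a UMI of such markers removed, 2736 genes were called in the comparison with conventional cells below in place of 3743.

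The share of members among T cells with a Cd4 UMI was 12.1, 10.9, 13.6, 16.9, 8.26 and 11.5%, from 69, 51, 87, 73, 46 and 84 cells among 572, 470, 640, 432, 557 and 728. The exact Clopper-Pearson 95% intervals, which cover counting error only, ran from 9.51% to 15.02%, 8.19% to 14.02%, 11.03% to 16.5%, 13.5% to 20.8%, 6.11% to 10.9% and 9.31% to 14.1%. The share was highest at day 3 labelled Cre-positive and lowest at day 7 labelled Cre-negative. Neither day 3 interval overlapped that of day 7 labelled Cre-negative, and every other pair of intervals overlapped. By label the shares averaged 13.1% ± 3.31 (SD, n = 3) in Cre-positive and 11.3% ± 2.75 (SD, n = 3) in Cre-negative libraries. Cre-positive was higher in 2 of 3 pairs. The exact two-sided permutation test shuffled the label over all CD45 libraries and did not keep these pairs, so the spread between treatments entered it. That permutation test gave p = 0.60, where 0.10 is the smallest p that 3 against 3 can reach. Treatment was not tested for these shares.

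The order of these shares is not read as an order of cell numbers, because detection of Foxp3 moves with depth. Members had median UMIs of 4651, 5537, 8316, 10356, 4190 and 6120 per cell, highest at day 3, and conventional cells 4750, 5726, 5198, 7174, 4041 and 5434.5. In the summed UMIs of all Cd4-positive T cells, Foxp3 stood at 38.9, 37.95, 25.2, 41.5, 29.5 and 39.01 CPM, and the library labelled day 3 Cre-negative, which had the second highest share, had the lowest of these values. With every cell thinned to 1000 UMIs before the gate, the shares were 5.18, 3.42, 2.63, 4.65, 3.26 and 1.44%. They rest on only 10, 4, 4, 4, 6 and 3 members with a Cd4 UMI, so their order is not read. In the CD31 fraction of the same 6 groups, sorted for the endothelial surface protein and holding some T cells, the same gate found 484 members and shares of 13.1, 10.3, 16.03, 17.7, 15.3 and 11.95%. A Y-linked UMI was found in 50.9, 86.3, 31.6, 50.4, 37.8 and 23.5% of CD31 members. In CD45 members this was 47.0, 83.8, 28.3, 54.9, 34.7 and 22.5%. The 2 fractions of a group may share mice, so CD31 values are not read as an independent repeat. As a background, 11 of 17389 B cells held a Foxp3 UMI, 0% to 0.13% per library; a count of 0 among the 2037 B cells labelled vehicle Cre-positive allows up to 0.147%. Among CD8 T cells 133 of 6949 held one, 0.81% to 3.37% per library.

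**Figure D1:**
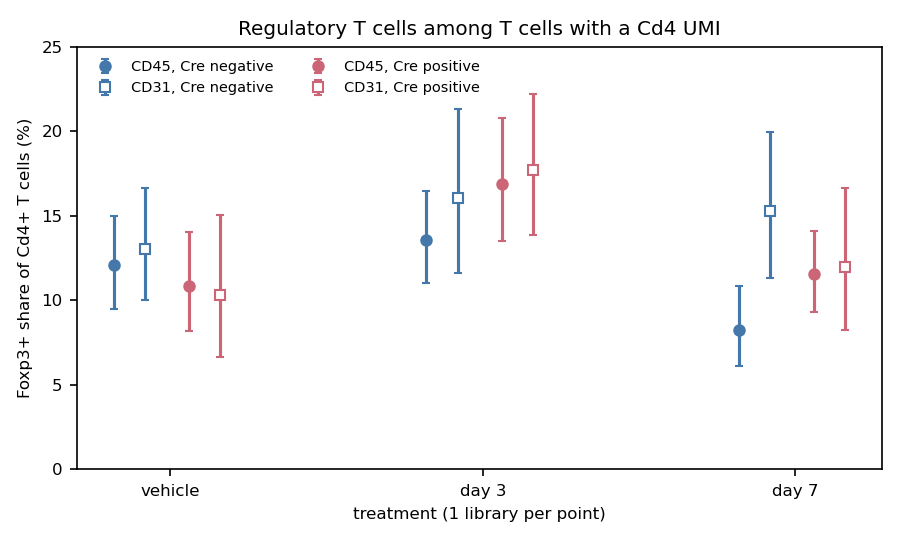
Share of members among T cells with a Cd4 UMI (vertical axis, percent) by treatment and Cre label; filled circles are single CD45 libraries, open squares single CD31 libraries, and bars are exact 95% intervals for counting error. The point for day 3 labelled Cre-positive, 16.9%, is the highest of the CD45 libraries and that for day 7 labelled Cre-negative, 8.26%, the lowest.

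The core program of the lineage was then compared between members and conventional CD4 T cells, paired within each library. Of 11455 genes tested, 1935 were higher in members (16.9%) and 1808 lower (15.8%) at an edgeR quasi-likelihood adjusted p under 0.05. In either direction 32.7% were called, and 42.6% had an unadjusted p under 0.05. All 19 genes of the core regulatory list were higher, with a median log2 difference of 2.005 against a median of -0.03 over all genes. Since the gate split the cells by Foxp3, genes that accompany Foxp3 are part of what it selects. Surface and signalling members of the list included Lrrc32, which encodes GARP, the anchor of latent TGF-beta (log2 difference 3.31 ± 0.20 SE, edgeR adjusted p = 3.1e-07), and Tnfrsf18, which encodes the costimulatory receptor GITR (log2 difference 1.93 ± 0.08 SE, edgeR adjusted p = 1.7e-08). Tnfrsf4, which encodes OX40, stood at 738, 559.5, 417, 467, 621 and 554 CPM in members and 157, 56.8, 117, 158, 113 and 121 CPM in conventional cells (log2 difference 2.21 ± 0.16 SE, edgeR adjusted p = 1.1e-06). Itgae, the integrin chain CD103 that binds E-cadherin on epithelia, stood at 163, 174, 50.6, 84.5, 78.4 and 130.4 CPM against 22.2, 5.98, 4.85, 3.29, 8.85 and 7.94 CPM (log2 difference 3.73 ± 0.22 SE, edgeR adjusted p = 3.2e-07). Its 2 vehicle libraries and the day 7 Cre-positive one were the highest, and no member sum overlapped a conventional one. Klrg1, a receptor of differentiated effector cells, stood at 53.6, 131, 52.96, 38.99, 37.6 and 26.4 CPM against 2.62, 1.49, 3.47, 0.411, 3.37 and 1.203 CPM (log2 difference 4.63 ± 0.29 SE, edgeR adjusted p = 4.3e-07). The smallest log2 differences named here were those of Nrp1, a semaphorin receptor, at 0.76, and of Izumo1r, the folate receptor 4 gene, at 0.85.

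Of the suppressive effector list, 12 of 13 tested genes were higher and none lower, with a median log2 difference of 2.28. Il10, the anti-inflammatory cytokine, differed by 2.99 and Areg, the epidermal growth factor family ligand of tissue repair, by 2.97. Itgb8, the integrin chain that releases active TGF-beta, differed by 2.55, and Tgfb1 itself by only 0.40. Gzmb, which encodes granzyme B, stood at 141, 135, 119.8, 147, 7.84 and 198 CPM in members and 10.5, 1.87, 5.55, 5.14, 6.75 and 9.86 CPM in conventional cells (log2 difference 4.25 ± 0.33 SE, edgeR adjusted p = 2.8e-06). The library labelled day 7 Cre-negative was far below the other 5. In CD31 members Gzmb stood at 139, 42.2, 183, 114, 5.56 and 191 CPM, lowest in the same group. Lag3, an inhibitory receptor, was the tested gene that did not pass, at -0.02 (edgeR adjusted p = 0.96). The genes of largest difference outside the lists included Neb (3.57), which encodes the muscle protein nebulin. Among list genes, Il1rl1, the receptor for the alarmin IL-33, differed by 4.66, Ccr2, a receptor for monocyte-attracting chemokines, by 3.31, and Prdm1, which encodes the effector factor BLIMP1, by 3.03.

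Genes that conventional cells keep and FOXP3 is known to hold down were lower without exception: 10 of 10 tested, with a median of -2.22. Il2, the growth factor itself, differed by -2.89 and Cd40lg, the ligand that helps B cells, by -2.09. Pde3b, a phosphodiesterase, stood at 17.1, 9.17, 12.8, 15.99, 6.27 and 11.8 CPM in members against 158, 239.9, 151, 267, 132 and 236 CPM (log2 difference -3.95 ± 0.16 SE, edgeR adjusted p = 1.7e-08), and Dapl1 differed by -3.68. Il4, the type 2 cytokine, had 554 UMIs in conventional cells against 9 in members, a ratio of CPM of 22.5 (95% counting interval 11.8 to 49.4). Il21, the follicular helper cytokine, had 156 UMIs against 1, a ratio of 57.0 with a counting interval of 10.1 to 2265. Other genes among the 10 largest that were lower were 4933406I18Rik, Mctp2, Hs3st3b1, Atp8b4, Tdrp, Pdlim4 and Plpp3, with log2 differences from -3.94 to -2.93, though Plpp3 had 0.07 in the CD31 fraction.

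The IL-2 receptor list was mixed, with 5 of 12 genes higher and 2 lower, the latter near the share of all genes. The counts of this and the next lists stand against 16.9% higher and 15.8% lower among all genes. Besides Il2ra, the shared beta chain Il2rb differed by 1.56 and Cish, a STAT5 target that dampens the signal, by 2.07. Of the TNF-receptor and NF-kB list 9 of 12 were higher and none lower, with a median of 0.53. Homing receptors were split, with 11 of 20 higher and 5 lower. The higher ones included the chemokine receptors Ccr8 (2.32), Ccr10 (2.04) and Cxcr3 (1.39). Those lower included S1pr1, the exit receptor of lymph nodes, at -0.47, Ccr7, the entry receptor, at -0.59, and Cxcr5, the follicle receptor, at -1.41. Of the genes of helper-type skewing 6 of 8 were higher, among them Gata3 (0.78), the factor of type 2 cells. Of the follicular list, 3 of 6 were lower and none higher, including Tox2 at -1.72.

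The share of members with a UMI of these genes was taken per library. Detection depends on depth, so these shares count cells with a UMI and not cells that express a gene. Ikzf2 was detected in 86.8% to 95.4% of the members per library and Ctla4 in 79.3% to 96.2%. Il2ra was detected in 50.4% to 69.9%, Gata3 in 38.02% to 59.4%, Itgae in 16.5% to 46.6% and Il1rl1 in 13.1% to 26.3%. Klrg1 was seen in 8.26% to 20.2%, Cxcr3 in 6.06% to 30.1%, Gzmb in 2.48% to 25.6% and Il10 in 1.65% to 14.4%. With members thinned to 1000 UMIs, Ikzf2 was detected in 61.8% to 78.8%, Ctla4 in 42.8% to 63.9% and Il2ra in 20.2% to 28.8%. In B cells, at a lower median depth of 2555 to 4418 UMIs, Ikzf2 was detected in 0.4200% to 1.94%, Ctla4 in 3.05% to 6.89%, Il2ra in 0.595% to 1.91% and Gzmb in 0.07000% to 0.432%. Gata3, Itgae, Il1rl1, Klrg1 and Il10 were each detected in under 1% of B cells in every library, and Cxcr3 in 0.2800% to 2.205%. Depth per cell differed between libraries, and no order across them is read from these shares.

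The count of called genes moved with the setting. With no expression filter 3946 of 21120 genes tested were called. Without the library block 1336 of 10123 genes tested were called, after thinning each cell to 1000 UMIs 1081 of 5448, after thinning before the gate 333 of 1717, and in the CD31 fraction 1443 of 10463. The cause was not tested. After the thinning to 1000 UMIs that followed the gate, 19 of 19 core genes and 11 of 11 suppressive genes still tested were higher, and 9 of 9 FOXP3-repressed genes were lower. In CD31 libraries 16 of 19 core genes were higher (median 1.55), 9 of 13 suppressive genes were higher and 1 lower (median 1.20), and 10 of 10 FOXP3-repressed genes were lower. Of the other lists there, 5 of 12 TNF-receptor and NF-kB genes and 8 of 20 homing receptors were higher, and of the helper-type genes 2 of 7 were higher and 1 lower.

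**Figure D2:**
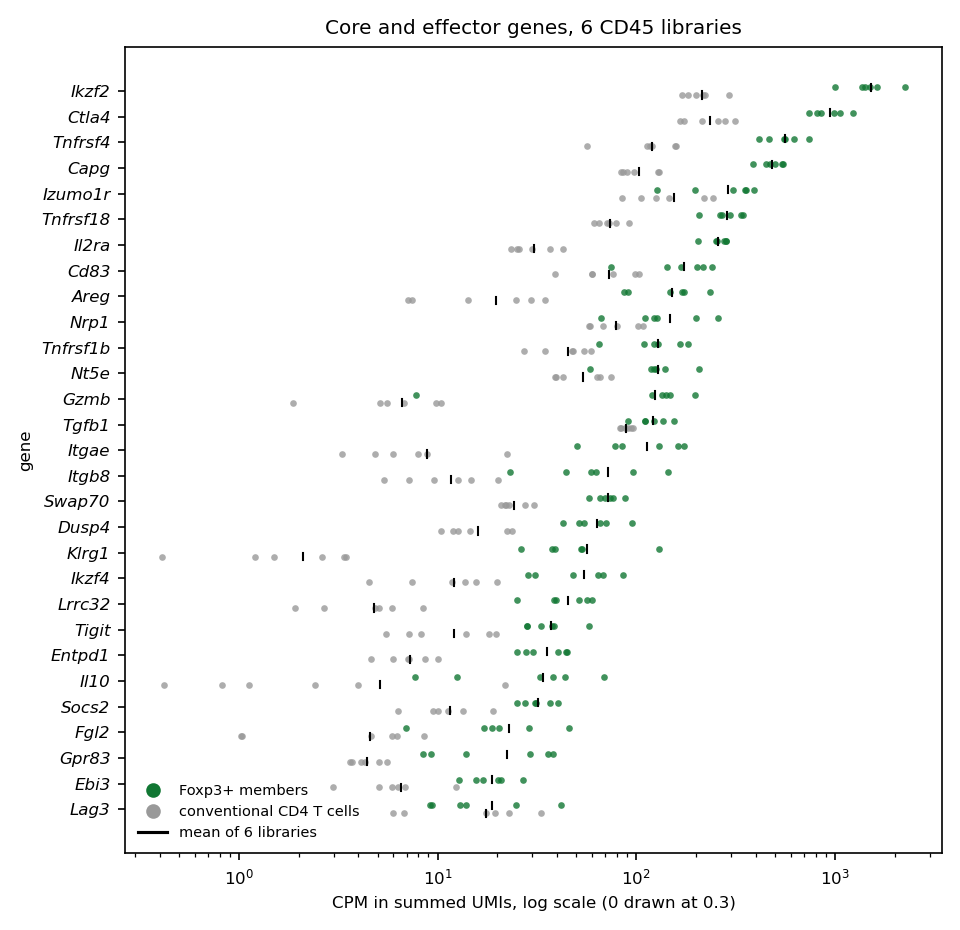
Levels of core and effector genes in CPM (horizontal axis, log scale) in summed UMIs of members and of conventional CD4 T cells; each point is 1 of the 6 CD45 libraries. Il2ra, Ikzf2 and Ctla4 separate the classes in every library, and the low member point of Gzmb is the library labelled day 7 Cre-negative.

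The balance of activated and resting genes was the question asked of the treatments. The activated list holds 27 genes such as Icos, Tnfrsf9, Klrg1, Il1rl1 and S100a4, and the resting list 15 such as Ccr7, Tcf7, Lef1 and Klf2. Against conventional cells, 25 of 27 activated genes were higher in members (median 1.57) and 14 of 15 resting genes lower (median -1.05). These counts are not separate from those of the lists above. Il7r, Igfbp4, Dapl1, Satb1 and Tcf7 are both resting and FOXP3-repressed genes, and Tnfrsf4, Tnfrsf18, Klrg1 and Itgae both activated and core genes. In CD31 libraries 19 of 27 activated genes were higher (median 1.27) and 11 of 15 resting genes lower (median -0.92). Among the activated genes were the calcium-binding protein gene S100a4 (2.26) and Lgals1 (1.82), which encodes galectin-1, and among the resting ones the transcription factor genes Tcf7 (-2.49), Lef1 (-1.63) and Bach2 (-1.40) in CD45 libraries. In members the activated list summed to 9264, 9681, 8548, 10553, 6479 and 8401 CPM and the resting list to 2574, 2826, 1849, 2120.3, 3055 and 2334 CPM. The log2 ratio of activated over resting was 1.85, 1.78, 2.21, 2.32, 1.08 and 1.85. Both day 3 libraries had the highest ratios, the library labelled day 7 Cre-negative the lowest, and the other 3 lay between 1.78 and 1.85. In conventional cells the ratio was -0.25, -1.62, -0.20, -0.51, -1.46 and -0.96, below 0 in all 6 CD45 libraries. In CD31 libraries conventional cells had -0.25, -1.73, 0.12, 0.46, -1.38 and -0.34, above 0 at day 3. By label, the ratio in members averaged 1.98 ± 0.29 (SD, n = 3) in Cre-positive and 1.71 ± 0.57 (SD, n = 3) in Cre-negative libraries, higher in 2 of 3 pairs, with no test. In CD31 members the ratios were 2.09, 0.91, 2.10, 2.34, 1.06 and 1.90, where vehicle labelled Cre-positive and not day 7 was the lowest.

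Cell by cell, with each member thinned to 1000 UMIs, the activated list held more UMIs than the resting list in 68.2, 73.7, 75.1, 85.7, 59.5 and 66.9% of members. The medians per 1000 UMIs were 7, 7, 7, 10, 5 and 6 activated and 2, 2, 2, 2, 3 and 2 resting UMIs. The share was lowest in the library labelled day 7 Cre-negative. The lists differ in size and in how abundant their genes are, which sets where they hold equal UMIs, so a share above that point does not count activated cells. After this thinning, the log2 ratio of sums was 1.67, 1.55, 1.81, 2.08, 0.83 and 1.40, lower in each library than without thinning. When cells were thinned before the gate, which also changes which cells are members, it was 1.40, 1.70, 1.13, 2.37, 1.29 and 1.76. There the library labelled day 3 Cre-negative had the lowest ratio in place of one of the highest, so the order of the day 3 libraries did not hold in that setting. Only 44, 29, 31, 26, 48 and 55 members were left there.

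At day 3 most genes of both lists had values below vehicle. Against vehicle, 20 of 27 activated genes had negative log2 differences (median -0.42), and 12 of 15 resting genes did as well (median -0.64), against a median of -0.02 over all genes. The ratio of sums is weighted by abundant genes, and these medians weigh each gene equally. None of these list genes passed the test. In CD31 members the activated list had a median of -0.0776 and the resting list of -0.56, so the activated shift was near 0 in that fraction. Across all 8925 genes tested with the Cre label as a term, 2 passed an edgeR adjusted p under 0.05 (0.0224%), both higher at day 3, and 1614 (18.1%) had an unadjusted p under 0.05. The levels of the 2 day 3 libraries lay wholly above the 2 vehicle libraries for 24.9% of all genes and wholly below for 24.3%. For the activated list these counts were 4 and 12 of 27, and for the resting list 1 and 9 of 15.

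Both genes that rose at day 3 were scarce in vehicle. Gzma, which encodes granzyme A (GRCm38 chromosome 13, 113093825 to 113100981), stood at 1.07, 1.31, 38.3, 24.99, 3.13 and 1.39 CPM (log2 difference 4.70 ± 0.55 SE, edgeR adjusted p = 0.032). It had 2 UMIs in vehicle and 149 at day 3, a ratio of 27.5 with a counting interval of 7.49 to 229.5. The NK marker sum of the same members stood at 5.36, 3.93, 18.6, 10.996, 4.70 and 49.3 CPM. Both day 3 libraries were above both vehicle ones in this sum too. Its highest value was at day 7 labelled Cre-positive, where Gzma stood at 1.39 CPM. Whether Gzma and the NK marker sum are linked was not tested. In CD31 members Gzma stood at 25.2, 0, 14.3, 29.7, 0 and 0 CPM, and the log2 difference was 0.65 and not called. Olfr1369-ps1, annotated at chromosome 13, 21111483 to 21119095, and named as an olfactory receptor pseudogene, stood at 3.22, 0, 67.6, 19.99, 6.27 and 2.08 CPM (log2 difference 4.70 ± 0.51 SE, edgeR adjusted p = 0.031), with 3 UMIs in vehicle and 215 at day 3, a ratio of 26.5 with a counting interval of 8.95 to 129.5. Leaving out 1 library gave log2 differences of 4.42 to 7.86, the highest without vehicle labelled Cre-negative, and without either day 3 library neither Gzma nor Olfr1369-ps1 was called. In CD31 members its difference was 4.39 and not called (edgeR adjusted p = 0.18). Whether its reads stem from this gene or from a close copy was not tested, so its identity is uncertain.

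Among the resting genes, Il7r, the receptor of the survival cytokine IL-7, stood at 245, 284, 83.9, 121, 143 and 142 CPM, with both day 3 libraries below the vehicle ones, and did not pass (log2 difference -1.36 ± 0.21 SE, edgeR adjusted p = 0.087). Bcl2, the survival protein, stood at 114, 187, 60.3, 40.5, 199 and 144 CPM, also lowest at day 3 (log2 difference -1.55 ± 0.32 SE, edgeR adjusted p = 0.11). Among core and effector genes, Itgae had the levels given above, with both day 3 libraries below both vehicle ones (log2 difference -1.34 ± 0.23 SE, edgeR adjusted p = 0.087). Itgb8 stood at 96.5, 145, 23.2, 44.5, 59.6 and 63.1 CPM (log2 difference -1.84 ± 0.26 SE, edgeR adjusted p = 0.085) and Izumo1r at 390.1, 308, 128, 197, 357 and 352 CPM (log2 difference -1.10 ± 0.24 SE, edgeR adjusted p = 0.11). Cish, the STAT5 target, stood at 65.4, 72.1, 27.8, 27.99, 53.3 and 53.4 CPM and had -1.27 (edgeR adjusted p = 0.095). In CD31 members Il7r stood at 118, 129, 77.6, 83.4, 134 and 157 CPM and Itgae at 108, 153, 47.5, 47.7, 72.3 and 98.9 CPM, both lowest at day 3. The day 3 CD45 libraries lay below both vehicle libraries for these genes, as they did for 24.3% of all genes, and none of the differences passed in the fit reported. Without vehicle labelled Cre-positive Bcl2 had -0.88, and without vehicle labelled Cre-negative it had -2.15 and was called (edgeR adjusted p = 0.0088). After thinning to 1000 UMIs Il7r had -0.57 and Bcl2 -0.96, neither called.

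The activated genes with positive values at day 3 were few. Anxa2, a membrane-binding annexin, stood at 200.4, 129.7, 323, 348, 146 and 151 CPM (log2 difference 1.06 ± 0.23 SE, edgeR adjusted p = 0.11), and Lgals1 stood at 1504, 1373, 2122, 2159, 1221 and 1502 CPM with the day 3 libraries highest. In CD31 members Anxa2 stood at 128, 111, 353, 299, 107 and 202 CPM, again highest at day 3. Core list genes had 17 of 19 negative differences (median -0.54), suppressive genes 13 of 13 (median -0.55), the TNF-receptor and NF-kB list 12 of 12 (median -0.37) and the IL-2 receptor list 11 of 12 (median -0.39), with none called. Both day 3 libraries lay below both vehicle ones for 11 of 19, 4 of 13, 5 of 12 and 8 of 12 of them. This held for 24.3% of all genes. These lists are not separate, since Ctla4, Lrrc32, Nt5e, Tnfrsf4, Tnfrsf18, Tnfrsf1b and Il2ra are core genes and also stand in another of them. Hspd1, a mitochondrial chaperone, stood at 215, 212, 738, 428, 254 and 281 CPM and Hmgcs1, an enzyme of cholesterol synthesis, at 24.7, 17.03, 61.5, 65.98, 20.4 and 13.9 CPM. These last 2 genes were chosen after their values were seen, and did not pass (edgeR adjusted p = 0.087 and 0.087). Members at day 3 were also the deepest cells, as the medians above show, and the part of depth in these values was not tested gene by gene beyond the thinning, under which 3 genes were called.

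How many genes were called at day 3 turned on single libraries. Without either day 3 library none was called, and without either of the 2 day 7 libraries, which are on neither side of that difference, 876 (labelled Cre-negative) or 849 (labelled Cre-positive) were. The genes tested were then 10044 and 8956 in place of 8925. The fit counts a difference between the labels in a treatment change as error. With a day 7 library left out, the other is fitted by its own term and adds nothing to that error. The residual degrees of freedom then fall below 2. How far this set the counts of calls was not tested. Without vehicle labelled Cre-negative 82 genes were called, and without vehicle labelled Cre-positive 20. With the cells that held a UMI of another cell type removed 256 were called, with high doublet scores removed 93, and by DESeq2 98. DESeq2 gave no adjusted p to 7094 of 8925 genes, Gzma and Olfr1369-ps1 among them, so its count is over fewer genes. Calls of the 14 genes named here for day 3 moved too, where Hmgb2, named below for its call after thinning, is not counted among them. Of the 13 tested, 10 not called in the fit reported were called with high doublet scores removed, and 10 of 13 with no UMI of other cell types. This held for 12 of 14 without either day 7 library, for 12 of 14 with no expression filter and for 8 of 8 with a DESeq2 adjusted p, while of the 10 tested after thinning none was newly called.

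At day 7 no gene passed against vehicle (0% of 8925), with 381 genes (4.27%) at an unadjusted p under 0.05 and 2 called by DESeq2. Of the activated list 26 of 27 genes had negative log2 differences (median -0.45), and 15 had both day 7 libraries below both vehicle libraries, which held for 15.8% of all genes. In CD31 members the median was -0.14. Klrg1, with the values given above, had -1.53 (edgeR adjusted p = 1). Il1rl1 stood at 78.2, 164, 48.7, 54.5, 76.8 and 26.4 CPM and had -1.32 (adjusted p = 1). The vehicle library labelled Cre-positive was the highest in both, and without it Klrg1 had -0.49. Il1rl1 had -0.28 without the day 7 library labelled Cre-positive. The resting list was balanced, with 8 positive and 7 negative differences. Igfbp4, a resting gene that binds insulin-like growth factors, stood at 40.7, 27.5, 28.6, 27.5, 98.7 and 61.1 CPM (log2 difference 1.22 ± 0.28 SE, edgeR adjusted p = 0.93), and the levels of both day 7 libraries were above those of vehicle. Leaving out the day 7 library labelled Cre-negative gave 104 called genes, and leaving out vehicle labelled Cre-negative gave 59.

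**Figure D3:**
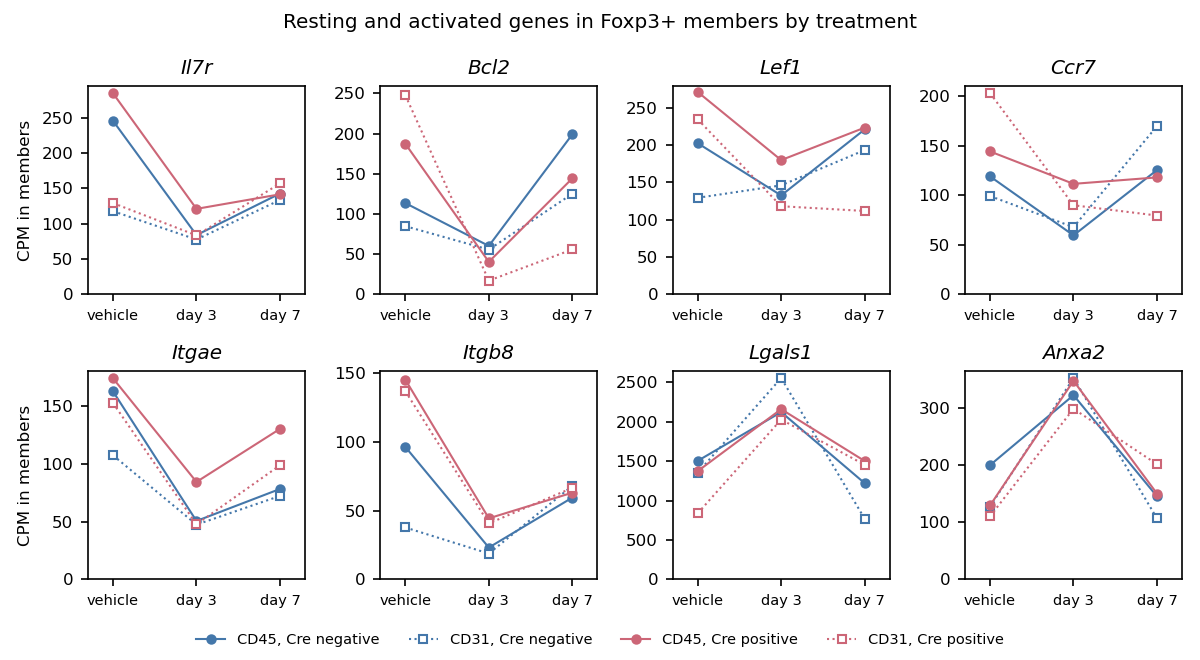
Levels (CPM, vertical axes from 0) in members by treatment, for resting and activated genes and for Itgb8, a gene of the suppressive list. Each point is 1 library, filled for CD45 and open for CD31, with the Cre labels in separate colours. Il7r in CD45 members lies lower in both day 3 libraries than in vehicle, at 83.9 and 121 CPM against 245 and 284 CPM.

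Cell-cycle genes had values above vehicle at day 3. In members the 20 genes summed to 9249.7, 7332, 12141, 11003, 7111 and 7618 CPM, and the day 3 libraries were the highest. All 20 had positive log2 differences against vehicle (median 0.58), and for 18 both day 3 libraries lay above both vehicle libraries, a pattern of 24.9% of all genes. None passed the test. After thinning to 1000 UMIs the median was 0.77 over the 14 genes tested, and Hmgb2, a chromatin protein of dividing cells, was called (log2 difference 1.15, edgeR adjusted p = 0.035). Rrm2, a subunit of the enzyme that makes DNA building blocks, stood at 111, 87.8, 237, 231, 111 and 127 CPM (log2 difference 1.26 ± 0.22 SE, edgeR adjusted p = 0.087), and Mcm2, a subunit of the replication helicase, had 1.22. At day 7 the list had 7 positive and 13 negative differences (median -0.0751), and in CD31 members its median was 0.40, so no direction is read from it.

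In conventional cells the same list summed to 3826, 1746, 8724, 7508, 2211 and 2205 CPM, lower than in members of the same library in 6 of 6. Against conventional cells all 20 genes were higher in members (median 1.42), among them the proliferation antigen Mki67 (log2 difference 1.88 ± 0.29 SE, edgeR adjusted p = 0.00051). Of 19 genes tested after thinning to 1000 UMIs, 16 were higher. The gap in summed CPM was smallest in the 2 day 3 libraries. In the test of whether the day 3 difference itself differed between the classes, all 20 genes had negative values (median -1.06) and 18 an unadjusted p under 0.05, the share of all genes being 5.73%, yet none of 11455 genes passed adjustment (0%). After thinning the median was -0.46 over 19 genes, with none called. Stmn1, a microtubule regulator of dividing cells, stood at 789, 525, 810.2, 727, 531 and 584 CPM in members and 268, 86.3, 639.5, 457, 135 and 111 CPM in conventional cells, and its difference of day 3 changes was -1.45 (edgeR adjusted p = 0.21). The count of called genes in that test ran from 1 to 335 when 1 library was left out, and was highest without vehicle labelled Cre-negative. For day 7 and for the label none of 11455 genes passed either, with 2.99% at an unadjusted p under 0.05 each.

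Counted as cells, members with at least 20 of 1000 thinned UMIs in the cell-cycle list made up 6.06, 3.03, 10.4, 12.8, 5.79 and 2.5% of members, or 8, 3, 18, 17, 7 and 4 cells. Among conventional cells they made up 2.19, 0.477, 3.44, 3.900, 0.587 and 0.311%. The members' share was above the conventional share in all 6 libraries and above 10% only in the 2 day 3 libraries. In percentage points the members' excess over conventional cells was largest at day 3, unlike the gap in summed CPM. The UMIs per cell were equal in this count, but the gate had chosen the cells at their full and unequal depth. The part of depth in that choice was not tested here. The threshold of 20 UMIs was set after the data were seen.

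**Figure D4:**
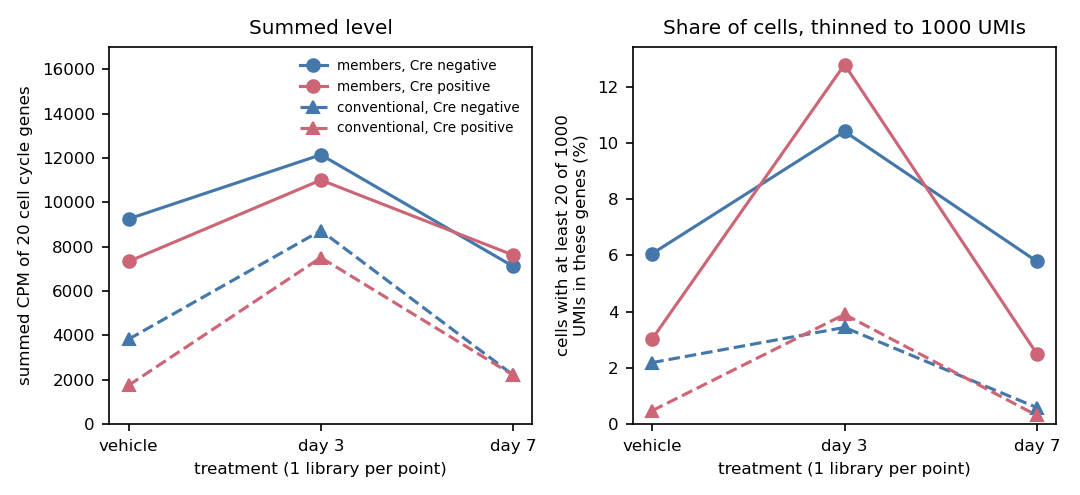
Summed level of 20 cell-cycle genes in CPM (left) and share of cells with at least 20 of 1000 thinned UMIs in these genes in percent (right), by treatment and Cre label, in members and conventional CD4 T cells. Members lie above conventional cells in each library, and the day 3 points, 12141 and 11003 CPM in members, are the highest.

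The Cre label was compared across the 3 treatments. Of 8925 genes 2 passed (0.0224%), both higher in the libraries labelled Cre-positive, and 515 (5.77%) had an unadjusted p under 0.05. Cdk8, a kinase of the transcription mediator complex (chromosome 5, 146231230 to 146302874), stood at 129, 394, 79.6, 197, 87.8 and 298 CPM (log2 difference 1.46 ± 0.18 SE, edgeR adjusted p = 0.038), higher in 3 of 3 pairs. Gm42418, a long non-coding RNA gene (chromosome 17, 39846958 to 39848788), stood at 3371, 6333, 1983, 3696, 2584 and 6016 CPM (log2 difference 0.92 ± 0.11 SE, edgeR adjusted p = 0.038), also higher in 3 of 3 pairs. Conventional cells held Cdk8 at 141, 491, 76.6, 221, 127 and 438 CPM and Gm42418 at 3731, 6060.02, 2019.9, 3048, 2792 and 7649 CPM, with the same order in all 3 pairs. Both differences are thus not particular to members, and whether they stem from the label or from the making of the libraries was not tested. In the test of whether the label difference itself differed between the classes, Cdk8 had -0.17 and Gm42418 0.07, neither called. In CD31 members neither passed, and Cdk8 stood at 84.03, 282, 61.8, 63.01, 149 and 92.4 CPM, higher in 2 of 3 pairs.

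No gene of the resting or activated lists passed for the label. The 3 Cre-positive libraries lay wholly above the 3 Cre-negative ones for 7.37% of all genes and wholly below for 2.38%, and these counts were 2 and 0 of 27 in the activated list and 0 and 1 of 15 in the resting list. The activated list had 20 positive and 7 negative differences (median 0.16), the resting list 5 and 10 (median -0.17), the core list 16 and 3 (median 0.19) and the suppressive list 12 and 1 (median 0.36), against -0.02 over all genes. The sign of the resting list's median turned after thinning (0.0220 over 12 genes) and in CD31 members (0.0807), so no direction is read from it. Cd44, the adhesion receptor of antigen-experienced cells, stood at 111, 263, 80.01, 146, 105 and 153 CPM (log2 difference 0.81 ± 0.19 SE, edgeR adjusted p = 0.62), and in CD31 members its difference was -0.35. Of the autophagy list 12 of 19 genes had negative and 7 positive differences, with none called. The count of genes called for the label ran from 0 without either day 3 library to 124 without day 7 labelled Cre-negative. It was 107 without day 7 labelled Cre-positive and 17 without either vehicle library. Among cells with a Y-linked UMI, and among members with at least 2 Foxp3 UMIs, it was 0.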

How the data were processed

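The deposited files hold raw UMI counts per gene and barcode for 12 libraries, 1 per group, of which the 6 of the CD45 fraction were used and the 6 of the CD31 fraction served as a comparison. The counts were made by the authors with Cell Ranger, version 4 per the file headers and 7.0.1 per the submitters' processing notes, on mm10 per the same notes. A 3' kit of V2 chemistry was used per the labels' protocols. Cells needed at least 1000 UMIs, 500 genes and at most 10% mitochondrial UMIs. Doublets were not removed; removing the cells of highest Scrublet score was an alternative. CD45 libraries held 36724887 to 70160214 UMIs.

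Summed UMIs of each class in each library were tested with edgeR 4.0.16 (R 4.3.3; quasi-likelihood, TMM, filterByExpr, Benjamini-Hochberg over all genes tested, threshold 0.05). Treatment and Cre label were terms of 1 additive fit over 6 sums with 2 residual degrees of freedom. Any difference between the labels in a treatment change counted as error in that fit. Members against conventional cells were blocked by library. A further split of the members, and some genes, are not reported here. Scanpy 1.11.5 was used under Python 3.11.15. Alternatives were DESeq2 1.42.0, other scalings, filters, gates, thinning and leaving out libraries. On simulated data 36.8% of genes changed by a log2 of 1 and 92.7% of those changed by 2 were recovered at day 3 (8583 genes), and 90.9% and 98% against conventional cells (11018 genes). The simulation gave every gene the same spread and no departure of single libraries. It therefore does not give the share of real changes that the fits of these data would find.

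Coordinates are those of GENCODE M21 on GRCm38, which matched 32158 of 32285 identifiers. Members and lists were chosen with earlier results of these data known. Genes named are those of the lists, plus, in the comparison blocked by library, the 10 of largest change in each direction among called genes with at least 20 CPM and 1 direction in all 6 libraries, and for treatment and label up to 8 called genes by the same kind of rule; Hspd1 and Hmgcs1 were added after their values were seen, as were the thinning after the gate and the restriction to cells with Y-linked UMIs. The lists are core regulatory, FOXP3-repressed, resting, activated, suppressive, IL-2 receptor, TNF-receptor and NF-kB, homing, follicular, helper-type, cell-cycle, interferon, immediate early and autophagy genes.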

Additional observations from a re-analysis of the deposited data

Results flagged for a closer look

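In the CD45 libraries on all UMIs, day 7 and vehicle differed in opposite directions between the Cre labels in a pair of measures. The share of members among T cells with a Cd4 UMI changed by -3.80 percentage points in the libraries labelled Cre-negative and by 0.687 points in those labelled Cre-positive. The log2 ratio of activated over resting genes changed by -0.762 and by 0.072. Each arm is 1 library against 1, and the difference between the labels was not tested. The opposite directions did not hold in every setting. Thinned before the gate, the share was lower at day 7 under both labels (5.18% and 3.26% in vehicle and day 7 labelled Cre-negative, 3.42% and 1.44% labelled Cre-positive). So few cells, 10 and 6 and then 4 and 3, do not settle a direction under either label. Thinned after the gate, the ratio was lower under both (1.67 and 0.83, 1.55 and 1.40), while thinned before it the directions were again opposite (1.40 and 1.29, 1.70 and 1.76). In the CD31 fraction the share was higher at day 7 under both (13.1% and 15.3%, 10.3% and 11.95%), while the ratio was 2.09 and 1.06 labelled Cre-negative and 0.91 and 1.90 labelled Cre-positive.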

How the results depend on the processing

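Members were compared with conventional cells in 3743 called genes in the fit reported. This count was 1443 in the CD31 libraries, 1336 without a library block, 1081 with cells thinned to 1000 UMIs after the gate and 333 when thinned before it, and 2862 to 3309 leaving out each library in turn. Of day 3 against vehicle 2 genes were called, against 1 in CD31 libraries that was neither of these, 98 by DESeq2, 5 with at least 2 Foxp3 UMIs, 1 in cells with Y-linked UMIs, 93 with high Scrublet scores removed, 256 with no UMI of other cell types, 560 with no expression filter, 4 under total-UMI scaling, and 0 to 876 leaving out libraries. Day 7 had none, against 2 by DESeq2, 71 with no filter, 1 thinned after the gate and 0 to 104 leaving out libraries. The Cre label had 2, against 0 in CD31 libraries, 5 with a Cd4 UMI required, 5 by DESeq2, 0 with at least 2 Foxp3 UMIs, 0 in cells with Y-linked UMIs, 12 with no UMI of other types, 72 with no filter, 5 thinned after the gate and 0 to 124 leaving out libraries. The tests of differences between the classes had none, against 168, 32 and 38 with no filter (day 3, day 7, label), 1 for the label after thinning, and 1 to 335, 0 to 151 and 0 to 32 leaving out libraries. With no filter more genes, of lower counts, were tested, and for the other settings the cause was not tested. By DESeq2 7094 of 8925 genes had no adjusted p at day 3.

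The share among Cd4-positive T cells was 6.82, 6.38, 7.19, 12.0, 2.87 and 7.42% with at least 2 Foxp3 UMIs and 5.18, 3.42, 2.63, 4.65, 3.26 and 1.44% when thinned before the gate, and 15.3% in the CD31 library of day 7 labelled Cre-negative. The activated over resting log2 ratio was 1.67, 1.55, 1.81, 2.08, 0.83 and 1.40 thinned after the gate and 1.40, 1.70, 1.13, 2.37, 1.29 and 1.76 thinned before it. With at least 2 Foxp3 UMIs it was 2.16 and 1.92 in vehicle and 1.19 and 1.96 at day 7, and with high Scrublet scores removed 1.69 in vehicle and 2.40 at day 3, both labelled Cre-positive. In CD31 libraries it was 2.09 and 0.91 in vehicle and 2.10 at day 3 labelled Cre-negative.

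In CD31 libraries the sign turned for Plpp3 against conventional cells (0.0662), Il7r at day 7 (0.24) and Cd44 for the label (-0.35). Lag3, not called, was at 0.15 with a Cd4 UMI required, 0.0251 by DESeq2, 0.0048 without high Scrublet scores, 0.0042 with no UMI of other types, 0.0651 without a library block, and -0.15 to 0.18 leaving out libraries. Replicate numbers pair no samples, since each treatment and label group is 1 library and the number only names it; the pairs reported are members and conventional cells of 1 library, and the labels within 1 treatment. Genes not tested under an alternative have no value there. Each library held 99 to 173 members, and the part of depth in the counts of calls was not tested.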

Other observations

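Gene groups outside the balance of resting and activated genes were compared between members and conventional CD4 T cells. Of the immediate early list, genes switched on within minutes of a stimulus or of tissue handling, 9 of 16 were lower in members and 2 higher (median -0.54, against -0.03 over all genes), where 15.8% of all genes were lower and 16.9% higher. In CD31 libraries 3 of 16 were lower and 1 higher, and after thinning 4 of 13 lower and 3 higher. Egr1, a factor induced by T cell receptor signals, stood at 35.4, 14.4, 11.6, 33.5, 79.9 and 34.7 CPM in members and 115, 115, 57.02, 52.9, 80.1 and 150.1 CPM in conventional cells (log2 difference -1.53 ± 0.28 SE, edgeR adjusted p = 0.0015). The day 7 library labelled Cre-negative was the exception, with 79.9 against 80.1 CPM. The heat shock gene Hspa1a was also lower (-0.58), while Dusp1, a phosphatase that ends kinase signals, was higher (0.55).

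Interferon-stimulated genes were mixed, with 6 of 20 higher and 2 lower (median 0.15), against 16.9% higher and 15.8% lower among all genes, so the lower count was under that share. Ifi27l2a stood at 3524, 2245, 2459.6, 3227, 2251 and 2250.1 CPM in members against 2174, 1072, 1649, 1678, 1182 and 1625 CPM, higher in 6 of 6 libraries (log2 difference 0.76 ± 0.07 SE, edgeR adjusted p = 1.1e-05), and the antiviral nuclease gene Isg20 was higher as well (0.87). Of the autophagy list 1 of 20 was higher and 3 lower (median 0.05), no larger shares than among all genes, and in CD31 libraries the median was -0.14. Map1lc3b, which encodes the membrane marker LC3B, was the higher one (0.41), and Atg10 and Atg14, which serve the membrane step and the start of the process, were among the lower (-0.37 and -0.78). At day 3, day 7 and for the Cre label no gene of these lists was called in members.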
